A study of Danio rerio with 8 samples.

Results

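The Notch pathway and the Her genes were examined in brains of zebrafish with a disrupted *psap*. This is the gene of prosaposin, the precursor of saposins A to D, which help lysosomal enzymes degrade sphingolipids. Genes were taken by name from the table of measured genes: Notch receptors, Delta and Jagged ligands, the ligases Mib1 and Mib2, the Fringe sugar transferases, Rbpj, the regulators Numb and Deltex, and the *her*, *hes6* and *hey* genes. The names matched 44 of 22871 genes, spread over 17 chromosomes. Of these, *jagn1a* and *jagn1b* matched by name only, because they encode Jagunal proteins of the endoplasmic reticulum and not Jagged ligands, and they are given apart.

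The brains compared were those of untreated *psap* KO fish, homozygous for a CRISPR-Cas9 insertion in *psap*, and of their WT siblings. All were 4 months post-fertilization (mpf). Per the study this age is the symptomatic end stage of disease in *psap* KO fish, with impaired locomotion, wasting or both. The state of illness and genotype therefore cannot be told apart. Each genotype had 4 libraries of total RNA depleted of ribosomal RNA, and each library held 3 pooled brains, so differences between single fish are averaged within a library. The fish were TuAB, both genotypes came from matings of heterozygous parents, and males and females were mixed at this stage, with the share of each in a pool not given in the sources used here. After genotyping the genotypes were kept in separate tanks, so tank and genotype cannot be told apart. Levels are read counts scaled for library size with TMM factors (CPM). Differences are log2 fold changes with *psap* KO on top (log2FC, with standard error SE) from edgeR's quasi-likelihood test, with a gene called higher or lower at an adjusted p under 0.05 over all 21140 genes tested.

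When a Delta or Jagged ligand on one cell binds a Notch receptor on its neighbour, Adam10 and the γ-secretase complex cut the receptor, and the released intracellular domain joins the DNA-binding protein Rbpj to switch on target genes. Among the targets are some of the *her* and *hey* genes, which encode basic helix-loop-helix repressors of neuronal differentiation genes. Whether each of the *her*, *hes6* and *hey* genes given here depends on Notch in these brains was not tested. In the adult zebrafish brain the pathway is best known from the radial glia that serve as neural stem cells, where Notch3 signaling keeps them quiescent, and from the walls of blood vessels.

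The libraries held 17562422 to 25127578 counts in *psap* KO brains and 15332163 to 23480758 in WT brains, and a principal component carrying 64.8% of the variance separated the genotypes. The *psap* transcript itself was at 381 to 450.4 CPM in *psap* KO brains and at 342 to 416 CPM in WT brains (log2FC 0.13, adjusted p = 0.206), so it does not check the genotype labels. The muscle marker list reached 748 CPM in WT pool 1, against 27.3 to 51.4 CPM in the *psap* KO pools and 74.2 CPM in the lowest WT pool. Because the libraries are of whole brains, fewer cells of a type and less RNA per cell cannot be told apart in any result below.

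Of the 44 genes, 41 had enough counts to be tested in the main fit. Among them 11 were higher in *psap* KO brains (26.8%, against 22.3% of all genes tested) and 10 were lower (24.4%, against 18.5%), which made 21 called in either direction (51.2%, against 40.8%). The genes higher in *psap* KO brains were *notch2*, *notch1a*, *jag1a*, *dll4*, *mfng*, *rbpjb*, *her6*, *her9*, *her13*, *her8.2* and *jagn1b*. Those lower were *jag2a*, *jag2b*, *mib1*, *numb*, *numbl*, *dtx2*, *dtx4*, *her4.1*, *her8a* and *jagn1a*. The log2FC was over 1 in size for 4 of the 41, *mfng*, *her13*, *her8.2* and *notch2* (9.76%, against 11.4% of all genes tested). The changes were mostly modest, with a median size of 0.42 on the log2 scale among the called members and 0.58 among all called genes. The median log2FC over the 41 was -0.05, and over all genes tested it was 0.02. For 19 of the 41 the libraries of the genotypes did not overlap (46.3%, against 40.3% of all genes tested), and each of these has an exact two-sided permutation p of 0.0286, the smallest that 4 libraries against 4 can give. Each of the 11 genes called higher was also called under every alternative processing that tested it and without each library in turn, with *her13* left out by a filter at a mean count of 50. Of the 10 called lower, 3 were (*jag2a*, *numb* and *numbl*), and the calls that the other 7 lost are given beside their values. The number called lower was 6 without *psap* KO pool 1, 5 without WT pool 1 and 5 without WT pool 2.

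**Figure D1:**
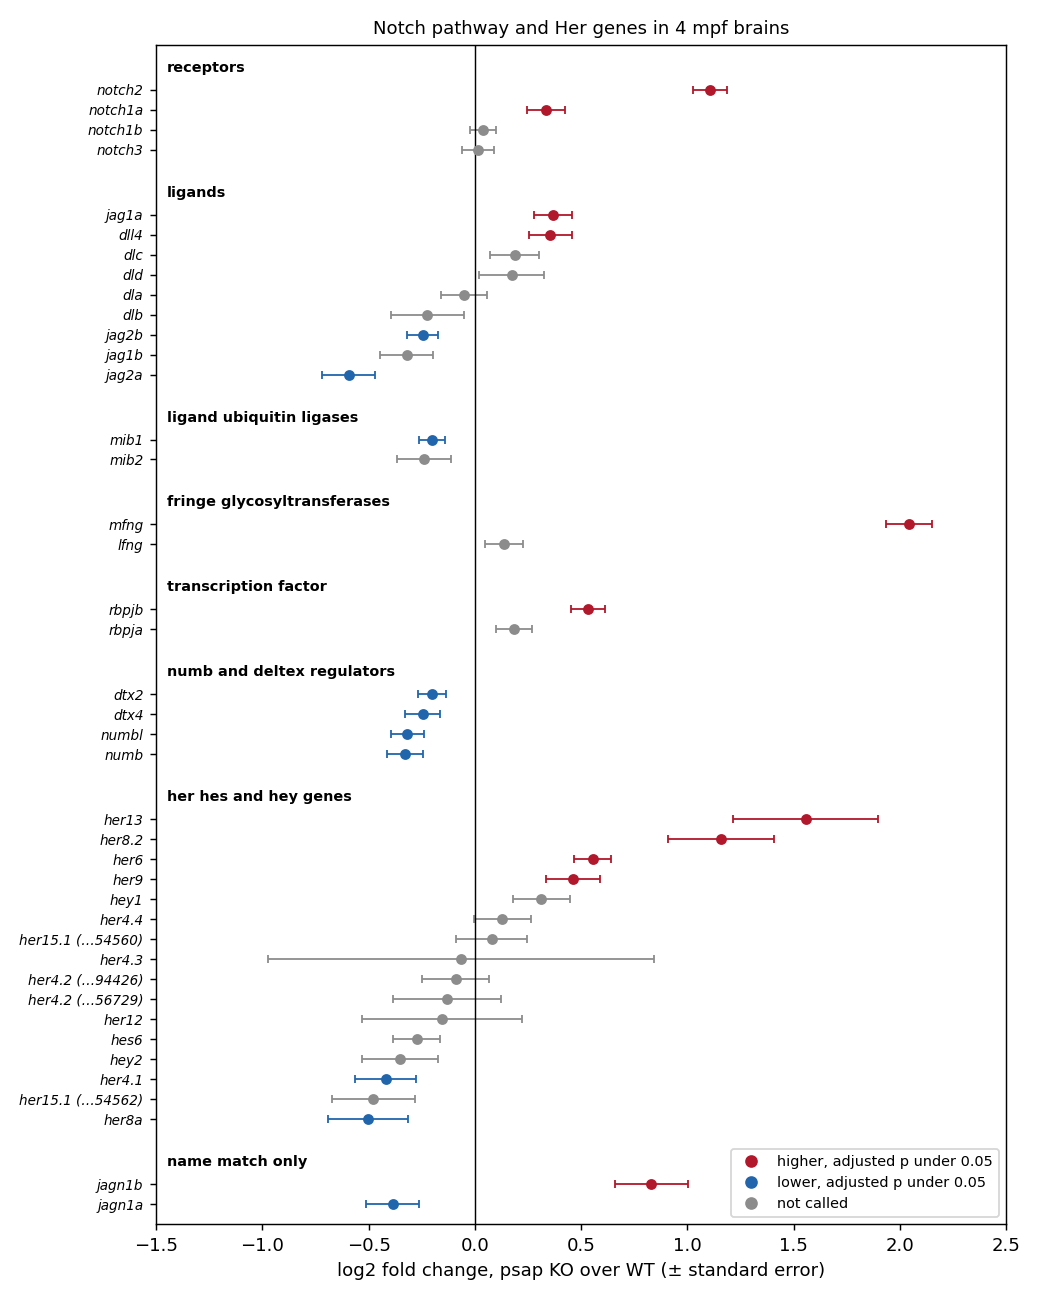
Log2FC, with *psap* KO on top (points), and its SE (bars) for the 41 tested members, grouped by role on the vertical axis, with the call shown by color. The point for *mfng* lies farthest to the right at 2.04, the 4 Numb and Deltex genes all lie left of 0, and *her4.3* has the widest bar.

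Of the 4 Notch receptors, 2 were higher in *psap* KO brains and none was lower, against 22.3% higher and 18.5% lower over all genes tested. *notch2* (chromosome 8, 19548985 to 19619792, plus strand, positions as the annotation file has them, without a named build), whose mammalian homolog is needed for marginal zone B cells, had 73.0, 67.2, 71.7 and 74.4 CPM in *psap* KO brains, against 37.1, 29.2, 33.6 and 33.0 CPM in WT brains. Every *psap* KO library was above every WT library, and the means were 71.6 ± 3.13 CPM in *psap* KO brains and 33.2 ± 3.22 CPM in WT brains (SD, n = 4 each), a 2.15-fold difference (log2FC 1.11, SE 0.0796, adjusted p = 6.1e-07). *notch1a*, a receptor used broadly in neural and vascular development, had 39.5, 40.1, 39.7 and 36.1 CPM in *psap* KO brains, against 33.1, 33.5, 31.1 and 25.7 CPM in WT brains. The libraries did not overlap here either, with a smaller difference of 1.26-fold (log2FC 0.33, SE 0.0909, adjusted p = 0.0107).

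The other 2 receptors gave no call. *notch1b*, the second zebrafish homolog of mammalian Notch1, had 86.2, 87.9, 87.2 and 85.3 CPM in *psap* KO brains, against 90.0, 86.7, 81.6 and 79.4 CPM in WT brains. Its interval was narrow, from -0.10 to 0.17 on the log2 scale at 95% confidence (log2FC 0.04, SE 0.0615, adjusted p = 0.653). *notch3*, the receptor of quiescent radial glia and of vascular mural cells, had 156, 195, 165 and 179 CPM in *psap* KO brains, against 172, 169.9, 179 and 166 CPM in WT brains. The WT libraries lay within the range of the *psap* KO libraries (log2FC 0.01, SE 0.0736, adjusted p = 0.892), and the 95% interval of the difference was -0.15 to 0.18. The direction of *notch3* turned with the scaling, to -0.01 with RLE scaling and -0.01 with DESeq2.

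**Figure D2:**
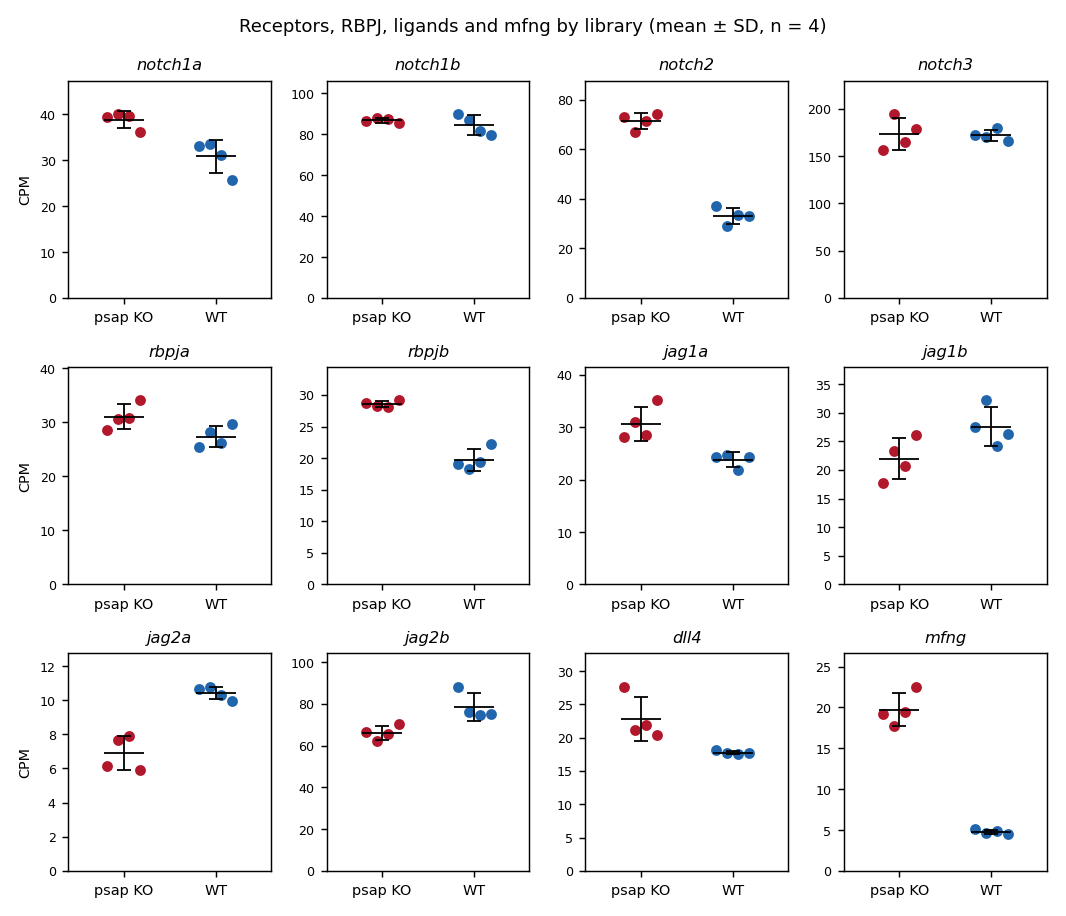
CPM in each library (points) with the mean and SD (bars) for the 4 receptors, both Rbpj genes, 5 ligands and *mfng*, each panel with its own vertical axis from 0 and *psap* KO left of WT. The *notch2* points sit between 67.2 and 74.4 CPM in *psap* KO brains, against 29.2 and 37.1 CPM in WT brains, while the *notch1b* and *notch3* points of the genotypes overlap.

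Among the 9 Delta and Jagged ligands, 2 were higher, 2 were lower and 5 were not called, against 22.3% higher and 18.5% lower over all genes tested. *jag1a*, 1 of the pair of zebrafish homologs of mammalian Jagged1, had 28.1, 31.1, 28.5 and 35.2 CPM in *psap* KO brains, against 24.4, 24.8, 21.8 and 24.4 CPM in WT brains. *dll4*, the Delta ligand of sprouting endothelium, had 27.7, 21.2, 21.9 and 20.4 CPM in *psap* KO brains, against 18.1, 17.7, 17.6 and 17.7 CPM in WT brains. For each of these genes all 4 *psap* KO libraries were above all 4 WT libraries, with differences of 1.29-fold for *jag1a* (log2FC 0.37, SE 0.0902, adjusted p = 0.00592) and 1.28-fold for *dll4* (log2FC 0.36, SE 0.101, adjusted p = 0.0138). *psap* KO pool 1 had the highest *dll4* level of the 8 libraries.

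The Jagged2 homologs were lower in *psap* KO brains. *jag2a* had 6.12, 7.66, 7.87 and 5.94 CPM in *psap* KO brains, against 10.6, 10.8, 10.3 and 9.95 CPM in WT brains, the larger fall of the pair at 66.2% of the WT level (log2FC -0.59, SE 0.124, adjusted p = 0.00223). For *jag2b* the levels were 66.4, 62.4, 65.8 and 70.5 CPM in *psap* KO brains, against 88.3, 76.1, 74.5 and 75.4 CPM in WT brains. The highest *psap* KO library lay under the lowest WT library (log2FC -0.24, SE 0.0733, adjusted p = 0.0178), and the call was lost without *psap* KO pool 2 (log2FC -0.22, adjusted p = 0.0574) or without WT pool 1 (-0.19, adjusted p = 0.0584), the pool with the high muscle transcripts.

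*jag1b*, the other Jagged1 homolog, had a log2FC of the opposite sign to that of *jag1a* and did not pass the test. Its levels were 17.7, 23.4, 20.8 and 26.0 CPM in *psap* KO brains, against 27.5, 32.2, 24.2 and 26.3 CPM in WT brains, with overlap between the genotypes (log2FC -0.32, SE 0.123, adjusted p = 0.055). It was called lower with RLE scaling (adjusted p = 0.0383) and with DESeq2 (0.0297), and without *psap* KO pool 4 (log2FC -0.41, adjusted p = 0.0121) or WT pool 3 (-0.38, adjusted p = 0.0437). The log2 ratio of *jag1a* to *jag1b* within a library was 0.49 ± 0.12 in *psap* KO brains and -0.20 ± 0.12 in WT brains (SD, n = 4 each), with no overlap.

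None of the 4 Delta genes named by letter, the ligands made by newborn neurons in the embryo, was called. *dla* had 9.35, 10.3, 11.1 and 11.1 CPM in *psap* KO brains, against 10.9, 11.0, 9.72 and 11.95 CPM in WT brains. *dlb* had 3.95, 4.53, 4.03 and 5.71 CPM in *psap* KO brains, against 5.78, 5.74, 4.22 and 5.67 CPM in WT brains. *dlc* had 10.5, 9.06, 8.85 and 9.96 CPM in *psap* KO brains, against 7.72, 9.18, 7.83 and 8.98 CPM in WT brains. The libraries of the genotypes overlapped for all of these, and the log2FC values were -0.05 for *dla* (SE 0.108, adjusted p = 0.744), -0.22 for *dlb* (0.171, adjusted p = 0.324) and 0.19 for *dlc* (0.114, adjusted p = 0.214). *dld* had 5.73, 6.47, 7.87 and 7.28 CPM in *psap* KO brains, against 6.43, 5.06, 5.50 and 7.25 CPM in WT brains, again with overlap (log2FC 0.17, SE 0.154, adjusted p = 0.403). At these counts the 95% intervals reached from -0.59 to 0.15 for *dlb* and from -0.16 to 0.51 for *dld*. A change within those limits is not excluded.

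*mib1*, the ubiquitin ligase that drives the endocytosis of Delta in the cell that sends the signal, was lower in *psap* KO brains. It had 118, 119, 115 and 113 CPM in *psap* KO brains, against 136, 143, 129 and 126 CPM in WT brains. The libraries did not overlap and the fall was to 87.0% of the WT level (log2FC -0.20, SE 0.0611, adjusted p = 0.0196). The call was lost without *psap* KO pool 3 (log2FC -0.20, adjusted p = 0.0517), WT pool 1 (-0.19, 0.0513) or WT pool 2 (-0.17, 0.0646). The microRNA genes *dre-mir-1-2* and *dre-mir-133a-1*, which muscle uses in vertebrates, lie within *mib1* on the opposite strand. The strand setting of the counting is not given in the sources used here, so their reads cannot be told apart from those of *mib1*. The related ligase gene *mib2* was at 25.9 to 30.7 CPM in *psap* KO brains and at 28.0 to 41.8 CPM in WT brains (log2FC -0.24, SE 0.127, adjusted p = 0.156).

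*mfng* had the largest fold change of the 41. It encodes Manic fringe, a glycosyltransferase of the Golgi that adds a sugar to fucose residues on the Notch receptor and so alters which ligands activate it, and it lies on chromosome 22 (15251527 to 15280638, minus strand). *mfng* had 19.2, 17.7, 19.4 and 22.6 CPM in *psap* KO brains, against 5.08, 4.66, 4.84 and 4.56 CPM in WT brains. The lowest *psap* KO library was above the highest WT library by far more than either group's spread, with means of 19.7 ± 2.03 CPM in *psap* KO brains and 4.78 ± 0.228 CPM in WT brains (SD, n = 4 each), a 4.12-fold difference (log2FC 2.04, SE 0.109, adjusted p = 6.3e-08). For *lfng*, the gene of Lunatic fringe, the range was 41.4 to 50.8 CPM in *psap* KO brains and 38.2 to 47.2 CPM in WT brains (log2FC 0.14, SE 0.0889, adjusted p = 0.241), with a 95% interval of -0.06 to 0.33.

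Of the Rbpj genes, which encode the DNA-binding partner of the cut receptor, *rbpjb* was higher. It had 28.8, 28.2, 28.1 and 29.2 CPM in *psap* KO brains, against 19.0, 18.4, 19.3 and 22.3 CPM in WT brains, a 1.45-fold difference with very little spread among the *psap* KO pools (log2FC 0.53, SE 0.0809, adjusted p = 2.3e-04). *rbpja* had 28.6, 30.7, 30.9 and 34.1 CPM in *psap* KO brains, against 25.4, 28.3, 26.1 and 29.7 CPM in WT brains. The libraries of *rbpja* overlapped, and the gene was not called (log2FC 0.18, SE 0.0834, adjusted p = 0.0991).

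All 4 measured Numb and Deltex genes were called lower in *psap* KO brains, against 18.5% of all genes tested. Numb holds Notch back in the cell that receives it at division, and Deltex proteins are ubiquitin ligases that bind the intracellular domain of Notch. *numb* had 46.4, 48.7, 41.8 and 39.3 CPM in *psap* KO brains, against 60.4, 54.9, 52.3 and 53.2 CPM in WT brains. *numbl* had 30.6, 34.7, 35.5 and 29.3 CPM in *psap* KO brains, against 40.9, 40.2, 39.7 and 41.4 CPM in WT brains. For both genes every *psap* KO library was under every WT library, at 79.7% of the WT level for *numb* (log2FC -0.33, SE 0.0835, adjusted p = 0.00744) and 80.2% for *numbl* (log2FC -0.32, SE 0.0787, adjusted p = 0.0063).

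*dtx2* had 57.2, 57.9, 58.7 and 53.5 CPM in *psap* KO brains, against 61.0, 66.2, 64.6 and 69.6 CPM in WT brains. The level of *dtx4* was 32.2, 33.6, 33.9 and 29.6 CPM in *psap* KO brains, against 38.3, 42.5, 37.8 and 34.97 CPM in WT brains. Neither gene had overlapping libraries, but the falls were small, to 87.0% of the WT level for *dtx2* (log2FC -0.20, SE 0.0662, adjusted p = 0.0279) and 84.3% for *dtx4* (log2FC -0.25, SE 0.0809, adjusted p = 0.0282). *dtx2* lost its call with upper-quartile scaling (adjusted p = 0.0531) and without *psap* KO pool 4 or WT pools 2, 3 or 4 (adjusted p = 0.0533 to 0.0647). *dtx4* lost it without *psap* KO pools 1 or 4 or WT pools 1, 2 or 3 (adjusted p = 0.0503 to 0.0861). Each fit without a library kept the direction, with log2FC values of -0.23 to -0.17 for *dtx2* and -0.30 to -0.20 for *dtx4*.

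Among the 19 Her, Hes and Hey genes, 16 were tested, of which 4 were higher, 2 were lower and 10 were not called. Over all genes tested, 22.3% were higher and 18.5% were lower. *her6*, a homolog of mammalian Hes1 (chromosome 6, 36551083 to 36552844, minus strand), had 36.5, 37.8, 35.1 and 41.4 CPM in *psap* KO brains, against 26.0, 24.1, 23.5 and 29.1 CPM in WT brains. *her9*, a close relative of *her6* that patterns the embryonic neural plate, had 13.6, 13.7, 12.2 and 17.8 CPM in *psap* KO brains, against 11.7, 9.58, 9.94 and 10.4 CPM in WT brains. For each, all *psap* KO libraries were above all WT libraries, with differences of 1.47-fold for *her6* (log2FC 0.55, SE 0.0884, adjusted p = 3.3e-04) and 1.38-fold for *her9* (log2FC 0.46, SE 0.127, adjusted p = 0.0114). *psap* KO pool 4 had the highest level of both genes.

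*her13* and *her8.2* showed larger folds at much lower counts. *her13* had 1.95, 2.42, 3.35 and 4.71 CPM in *psap* KO brains, against 0.81, 0.877, 0.792 and 1.72 CPM in WT brains, from 282 reads over the *psap* KO libraries and 83 over the WT libraries. The level of *her8.2* was 2.78, 4.88, 2.43 and 3.98 CPM in *psap* KO brains, against 1.62, 1.28, 1.67 and 1.72 CPM in WT brains, from 315 reads in *psap* KO and 124 in WT brains. In each gene the *psap* KO libraries were above the WT libraries, 2.94-fold for *her13* (log2FC 1.56, SE 0.341, adjusted p = 0.00299) and 2.23-fold for *her8.2* (log2FC 1.16, SE 0.25, adjusted p = 0.00274). WT pool 4 had 1.72 CPM of *her13*, close to the lowest *psap* KO library. The genes lie near each other on the plus strand of chromosome 15, *her8.2* at 7176182 to 7178865 and *her13* at 7187228 to 7190183. Next to them on the same strand is *pik3cb* (7064819 to 7161877), which encodes a catalytic subunit of phosphoinositide 3-kinase and was also higher, at 64.5 to 69.9 CPM in *psap* KO brains and 38.1 to 41.4 CPM in WT brains (log2FC 0.73, SE 0.0635, adjusted p = 2.8e-06). The part of reads from *pik3cb* in the counts of its neighbours was not tested.

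The *her4* genes, classical Notch targets of radial glia, sit in a cluster on chromosome 23 (21452557 to 21471022), and 1 of the 5 was called lower. *her4.1* had 7.41, 8.93, 7.19 and 8.39 CPM in *psap* KO brains, against 8.53, 11.1, 9.99 and 13.2 CPM in WT brains, was called lower by edgeR (log2FC -0.42, SE 0.143, adjusted p = 0.033), and had overlapping libraries (exact two-sided permutation test, p = 0.0571). Its call was lost without *psap* KO pool 1 (log2FC -0.39, adjusted p = 0.0728), *psap* KO pool 3 (-0.37, 0.0895), WT pool 2 (-0.41, 0.0704) or WT pool 4 (-0.31, 0.102). *her4.4* had 7.52, 8.27, 6.61 and 9.69 CPM in *psap* KO brains, against 7.07, 7.02, 7.48 and 7.81 CPM in WT brains and was not called (log2FC 0.13, SE 0.135, adjusted p = 0.478).

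The name *her4.2* belongs to a pair of genes in the table, and neither was called. The one with the identifier ENSDARG00000094426 had 19.0, 22.8, 23.5 and 25.1 CPM in *psap* KO brains, against 28.0, 16.8, 22.3 and 29.0 CPM in WT brains (log2FC -0.09, SE 0.157, adjusted p = 0.682). The other, ENSDARG00000056729, had 4.90, 4.36, 7.97 and 4.37 CPM in *psap* KO brains, against 5.67, 4.12, 5.10 and 8.56 CPM in WT brains (log2FC -0.13, SE 0.253, adjusted p = 0.718). *her4.3* had 7.13, 10.2, 9.38 and 0.996 CPM in *psap* KO brains, against 0.432, 8.57, 8.09 and 11.6 CPM in WT brains. It stood out by its spread and not by genotype, because *psap* KO pool 4 and WT pool 1 were each far under the other 3 pools of their genotype, with 26 and 8 reads, against 127 to 250 reads in the rest (log2FC -0.07, SE 0.907, adjusted p = 0.962). By annotated position, 1872 of the 1878 bases of *her4.3* lie within the longer *her4.2* gene (ENSDARG00000094426) on the same strand. The sequences of the copies were not compared here. The handling of reads that match several genes is not given in the sources used here, so the values of the single copies are uncertain.

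Summed over the 5 copies, *her4* had 45.9, 54.6, 54.7 and 48.6 CPM in *psap* KO brains, against 49.7, 47.6, 53.0 and 70.2 CPM in WT brains. WT pool 4 was the highest of the 8 libraries, and the other 3 WT pools lay among the *psap* KO pools. The means were 50.9 ± 4.39 CPM in *psap* KO brains and 55.1 ± 10.3 CPM in WT brains (SD, n = 4 each), with log2FC at -0.12 (SE 0.117, adjusted p = 0.467 by edgeR, p = 0.6 by the exact two-sided permutation test), and 0.02 without WT pool 4. The *her15.1* pair, another duplicated *her* gene of the neural tube, was also not called when summed, with 8.82 ± 1.39 CPM in *psap* KO brains and 9.93 ± 1.06 CPM in WT brains (SD, n = 4 each), and log2FC was -0.17 (SE 0.135, adjusted p = 0.355). Singly, the log2FCs of the *her15.1* pair were 0.08 (adjusted p = 0.739, ENSDARG00000054560) and -0.48 (adjusted p = 0.0697, ENSDARG00000054562). The second of these was called without *psap* KO pool 4 (-0.67, adjusted p = 0.0102).

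**Figure D3:**
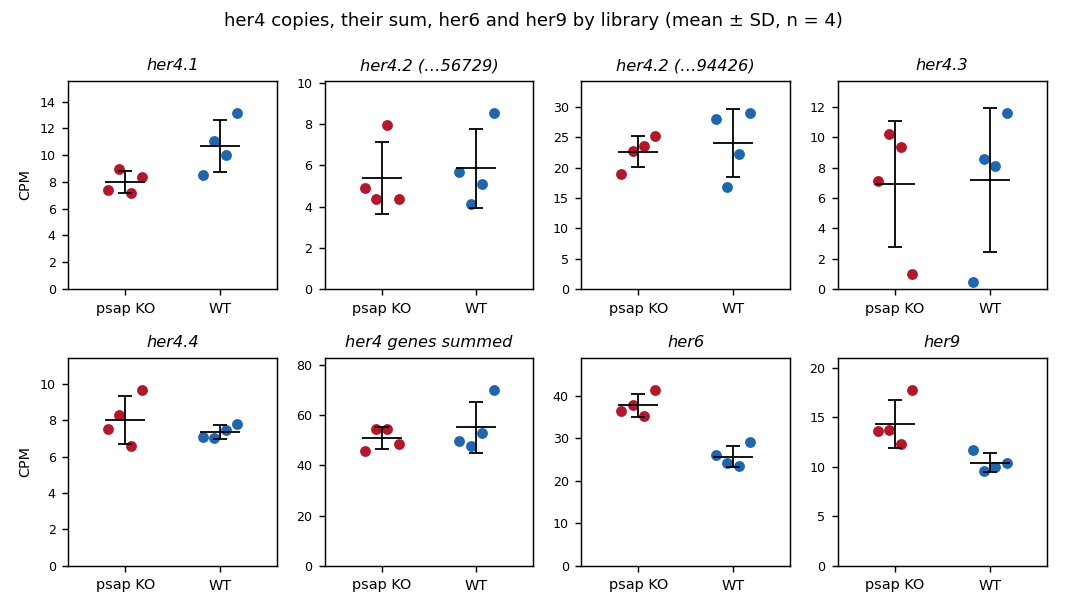
CPM in each library (points) with the mean and SD (bars) for the 5 *her4* copies, their sum, *her6* and *her9*, each panel with its own vertical axis from 0 and *psap* KO left of WT. The *her6* points lie between 35.1 and 41.4 CPM in *psap* KO brains, against 23.5 and 29.1 CPM in WT brains, whereas the summed *her4* points of the genotypes overlap and 1 *her4.3* point of each genotype lies near 0.

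*her8a* was called lower in *psap* KO brains. It had 2.17, 3.04, 3.40 and 2.49 CPM in *psap* KO brains, against 4.104, 4.25, 3.39 and 4.05 CPM in WT brains, and the highest *psap* KO library was just above the lowest WT library (log2FC -0.50, SE 0.187, adjusted p = 0.0479). The call lay just under the threshold and was lost with upper-quartile scaling (adjusted p = 0.0603) or a filter at a mean count of 50 (0.051), with a replicate block (log2FC -0.52, adjusted p = 0.064), and without *psap* KO pools 1, 2 or 4 or WT pools 1, 2 or 4 (adjusted p = 0.062 to 0.115). Without a library its log2FC was -0.61 to -0.41.

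*hey1* and *hey2*, which encode repressors that act with Notch in arteries, were not called. *hey1* had 20.8, 29.3, 28.8 and 32.9 CPM in *psap* KO brains, against 26.0, 21.3, 19.97 and 23.0 CPM in WT brains, with 3 *psap* KO pools above all WT pools and pool 1 among them (log2FC 0.31, SE 0.132, adjusted p = 0.0787). It was called higher without *psap* KO pool 1 (log2FC 0.43, adjusted p = 0.00641). *hey2* had 3.79, 3.56, 3.35 and 3.83 CPM in *psap* KO brains, against 4.37, 3.78, 4.18 and 6.19 CPM in WT brains (log2FC -0.35, SE 0.179, adjusted p = 0.136). *hes6*, whose mammalian homolog opposes Hes1, was at 11.4 to 15.7 CPM in *psap* KO brains and 14.7 to 17.6 CPM in WT brains (log2FC -0.27, SE 0.111, adjusted p = 0.0679), and was called lower with RLE scaling (adjusted p = 0.0447), with DESeq2 (0.0485) and without *psap* KO pool 4 (log2FC -0.36, adjusted p = 0.0143). *her12* was at 0.484 to 0.681 CPM in *psap* KO brains and 0.337 to 1.01 CPM in WT brains (log2FC -0.15, SE 0.375, adjusted p = 0.774).

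The remaining 3 genes had too few counts to be tested in the main fit. *heyl*, a relative of *hey1* and *hey2*, had 0.668, 0.572, 0.632 and 0.306 CPM in *psap* KO brains, against 0.432, 0.27, 0.176 and 0.279 CPM in WT brains, from 46 reads over the *psap* KO libraries and 22 over the WT libraries. *her2* had 27 reads in *psap* KO and 32 in WT brains, and *her7*, an oscillating gene of the embryonic segmentation clock, had 33 in *psap* KO and 23 in WT brains. The libraries of *heyl* overlapped (exact two-sided permutation test, p = 0.0571). The filter on low counts left these genes out of the main fit, which therefore did not assess a difference in them.

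The Jagunal genes were called in opposite directions. *jagn1b* had 7.74, 7.48, 7.92 and 10.3 CPM in *psap* KO brains, against 4.75, 3.64, 4.31 and 6.05 CPM in WT brains, a 1.78-fold difference (log2FC 0.83, SE 0.172, adjusted p = 0.00208). *jagn1a* had 8.13, 8.58, 11.7 and 10.5 CPM in *psap* KO brains, against 13.4, 12.8, 12.01 and 12.8 CPM in WT brains and was lower (log2FC -0.39, SE 0.124, adjusted p = 0.0252). Its call was lost without *psap* KO pool 1 (log2FC -0.31, adjusted p = 0.0652), *psap* KO pool 2 (-0.33, 0.0737) or WT pool 1 (-0.36, 0.0636). Without this pair, 10 of 39 tested genes were higher and 9 were lower, against 22.3% higher and 18.5% lower over all genes tested.

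Because several duplicated genes gave unequal values, the log2 ratio of each of 11 pairs of related genes was compared within libraries, which depends little on the scaling between libraries. For single genes, the CPM of the genotypes did not overlap in 40.3% of all genes tested. The ratio differed without overlap between the genotypes in 5 of the 11 pairs, each with a gene called higher over one not called. It was higher in *psap* KO brains by 1.88 for *mfng* to *lfng*, 1.099 for *notch2* to *notch3*, 0.69 for *jag1a* to *jag1b*, 0.35 for *rbpjb* to *rbpja* and 0.30 for *notch1a* to *notch1b*. Each of these had an exact two-sided permutation p of 0.0286, the smallest possible, and an adjusted p over the 11 pairs of 0.0629, so none passed the threshold after adjustment. The pairs were set after the values were seen and use the same counts, so the ratios are not independent of the fold changes above. In the other 6 pairs the libraries overlapped, with differences of -0.36 for *jag2a* to *jag2b* (exact permutation p = 0.0571, adjusted 0.105), 0.61 for *hey1* to *hey2* (0.0857, adjusted 0.135), 0.11 for *her6* to *her9* (0.314, adjusted 0.432), 0.04 for *dtx2* to *dtx4* (0.629, adjusted 0.768), 0.02 for *mib1* to *mib2* (adjusted 0.911) and -0.01 for *numb* to *numbl* (adjusted 0.943).

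The pathway genes that these names do not match were read from a list of 47, of which 43 were in the table and tested. Of them 4 rose and 11 fell in *psap* KO brains, against 22.3% higher and 18.5% lower over all genes tested, and the median log2FC was -0.15. The 4 higher were all of the machinery that cuts Notch. *adam10a*, a protease that makes the first cut after ligand binding, was at 139.9 ± 11.1 CPM in *psap* KO brains and 76.7 ± 1.99 CPM in WT brains (SD, n = 4 each; log2FC 0.87, SE 0.0682, adjusted p = 1.3e-06). The γ-secretase genes *psen2* (log2FC 0.605, adjusted p = 1.4e-04), *psenen* (0.58, adjusted p = 3.0e-04) and *aph1b* (0.36, adjusted p = 0.00335) were higher as well, whereas *adam10b* was not called (-0.16, adjusted p = 0.153). These proteases also cut many other membrane proteins. The largest falls were in *cntn1b* (-0.77, adjusted p = 2.2e-04), a neuronal contactin, *tle2b* (-0.61, adjusted p = 6.7e-05), a Groucho corepressor that Her proteins recruit, and *dner* (-0.54, adjusted p = 2.9e-04), a neuronal transmembrane protein with Delta-like repeats. The feedback genes *nrarpa* (0.09, adjusted p = 0.395) and *nrarpb* (0.24, adjusted p = 0.0699), which Notch switches on, were not called.

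Other genes that act beside the Her repressors were read in the same way. Of 8 tested genes for further hairy-related and Id proteins, 4 were higher and none was lower. The shares over all genes tested were 22.3% higher and 18.5% lower. Those higher were *id1* (log2FC 0.54, adjusted p = 0.0497), *bhlhe41* (0.31, adjusted p = 0.0144), *id2a* (0.30, adjusted p = 0.0111) and *bhlhe40* (0.22, adjusted p = 0.0137). The number higher was 3 with RLE scaling, with no filter on low counts and without any 1 of *psap* KO pools 2, 3 or 4 or the WT pools, and 6 without *psap* KO pool 1. The next list held 20 tested genes of neural progenitors, neuroblasts and proneural factors, the last repressed by Her proteins in the embryo. In the main fit 4 were higher and 2 were lower, no larger a share in either direction than the 22.3% and 18.5% over all genes tested. The median log2FC was -0.01. The number higher was 6 with upper-quartile scaling, a filter at a mean count of 50 or a replicate block. It was 5 with limma-voom and without *psap* KO pools 3 or 4 or WT pools 1 or 2. In the other fits it was 4, and 2 were lower in every fit. *nes*, which encodes the intermediate filament nestin, was higher (1.91, adjusted p = 3.6e-06), as was 1 of 2 genes named *ascl1b* (3.10, adjusted p = 2.3e-05, ENSDARG00000009702, against 0.04 for the other). *sox11b* was lower (-0.69, adjusted p = 2.9e-05) and its paralog *sox11a* higher (0.45, adjusted p = 3.7e-04), and *ascl1a* was not called (-0.01, adjusted p = 0.954).

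**Figure D4:**
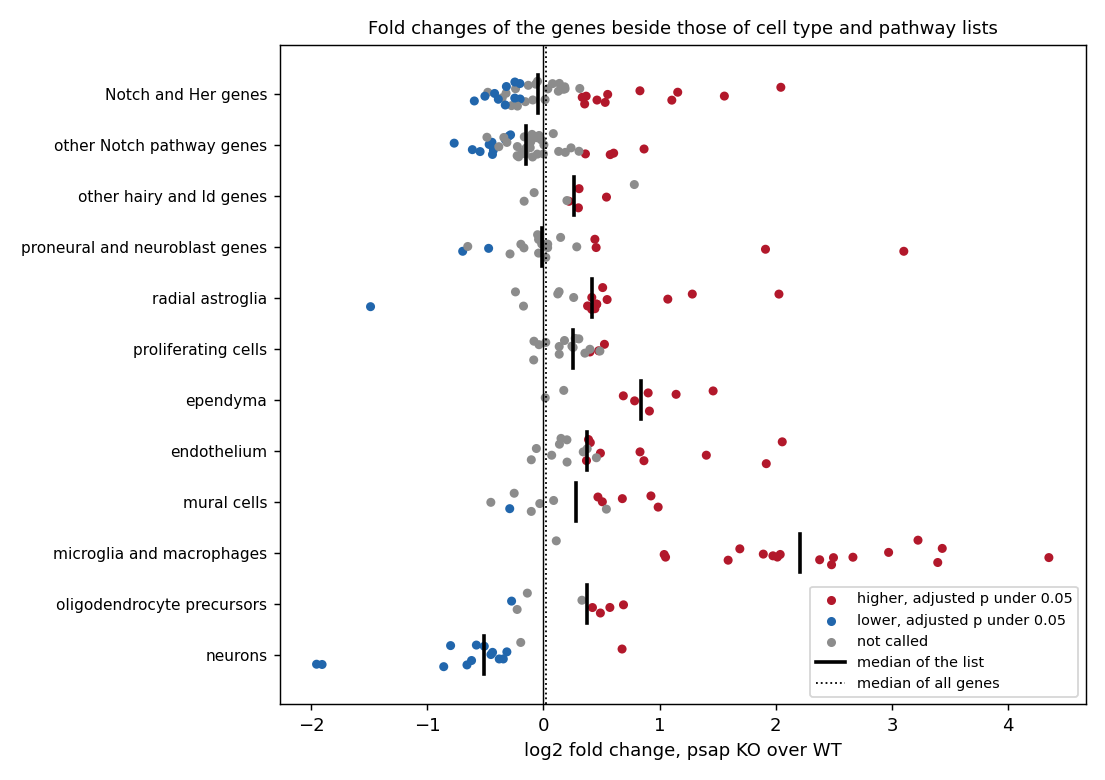
Log2FC, with *psap* KO on top (points, 1 per gene) for the tested members and for 11 lists of other genes, with the median of each as a black bar and the median of all genes tested as a dotted line. The points of the members lie between -0.59 and 2.04 around their median of -0.05, while the medians of the microglia, ependyma and astroglia lists lie right of 0 and that of the neuron list left of it.

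Markers of the cell types that use the pathway moved with genotype, and their part in the differences above was not tested. Beside the counts below, 22.3% of all genes tested were higher and 18.5% were lower. For radial astroglia 11 of 17 markers were higher and 1 was lower, *gfap* among the first (log2FC 2.03, adjusted p = 4.4e-07) and *cyp19a1b*, brain aromatase, the lower one (-1.49, adjusted p = 0.00545), with a summed level of 6604 to 7852 CPM in *psap* KO brains and 5649.8 to 6499 CPM in WT brains. For endothelium 9 of 19 were higher and none lower (554 to 637 CPM in *psap* KO brains, against 422 to 479 CPM in WT brains). The lowest p values there were those of *fli1b* (log2FC 1.40, adjusted p = 1.6e-05), *tie1* (0.87, adjusted p = 3.7e-05), *pecam1* (1.92, adjusted p = 4.9e-05) and *cldn5b* (2.06, adjusted p = 5.0e-04). *kdrl* was at 0.37 (adjusted p = 8.0e-04), and *cdh5* was among the 10 not called (0.20, adjusted p = 0.143). For mural cells 5 of 12 were higher and 1 lower (2 lower without *psap* KO pool 4, summed level 304 to 325 CPM in *psap* KO brains, against 265 to 279 CPM in WT brains). Among them *pdgfrb* was at 0.93 (adjusted p = 4.6e-07), and the lower one, *abcc9*, was at -0.29 (adjusted p = 0.00278). Called or not, 7 of the 12 had a log2FC above 0 and 5 had one under 0. Microglia and macrophage markers had 17 of 18 higher, a median log2FC of 2.21 and a summed level of 1141 to 1702 CPM in *psap* KO brains, against 318 to 361 CPM in WT brains. Neuron markers were lower in 13 of 15 cases and higher in 1, *gap43* (log2FC 0.68, adjusted p = 0.00121). Their median log2FC was -0.51, with a summed level of 3992 to 4296 CPM in *psap* KO brains, against 5818 to 5969 CPM in WT brains.

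Of the proliferation markers 3 of 17 were higher and none lower, against 22.3% higher and 18.5% lower over all genes tested. The 3 were the replication helicase genes *mcm7*, *mcm5* and *mcm4*, and 1 marker was higher without *psap* KO pools 1 or 4 or WT pools 2 or 3. The summed level of the list was 177 to 235 CPM in *psap* KO brains and 162 to 181 CPM in WT brains. Of 8 genes in the oligodendrocyte precursor list 4 were higher, *nkx2.2a*, *sox10*, *olig2* (log2FC 0.57, adjusted p = 0.00539) and *pdgfra* (0.42, adjusted p = 0.00702). The 1 lower was *myrf* (-0.27, adjusted p = 0.0232), which the study counts as a differentiation marker. None was lower without *psap* KO pools 1 or 3 or WT pool 1. The summed level of this list was 196 to 258 CPM in *psap* KO brains and 192 to 218 CPM in WT brains. By qRT-PCR the study reported *olig2* and *pdgfra* as unchanged throughout the disease. From RNA sequencing it described oligodendrocyte markers as not highly altered. Of 8 ependyma markers 6 were higher and none lower (48.4 to 56.0 CPM in *psap* KO brains, against 27.7 to 30.6 CPM in WT brains). All 9 interferon response genes tested were higher, median log2FC 3.27. Skeletal muscle markers had 1 of 10 lower (*ttn.1*, -4.12, adjusted p = 0.00843) and none higher, with 2 lower without WT pool 3.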

How the data were processed

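RNA sequencing of 8 libraries, 4 per genotype and each from 3 pooled brains, was taken from a workbook of the authors. Per the study's methods, stranded libraries were cleared of optical duplicates, trimmed with cutadapt 1.16, aligned with STAR 2.6.1b to Zv10 with Ensembl features and counted per gene with featureCounts 1.6.3. The deposited raw counts of 22871 genes were the basis of every value, and the deposited annotation gave names, positions and strands without naming a build. The authors' fold changes, p-values, normalized counts, regularized logarithms and summary sheets were not used. 0 per-sample columns were left unmapped. Strand and multiple-mapping settings of the counting are not given in the sources used here.

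Libraries held 15332163 to 25127578 counts, with TMM factors of 1.009 to 1.041 in *psap* KO and 0.967 to 0.988 in WT libraries. In R 4.3.3, edgeR 4.0.16 with filterByExpr left out 1731 genes, and a robust quasi-likelihood test compared the genotypes, with Benjamini-Hochberg adjustment over 21140 genes at 0.05. Log2 CPM used a prior count of 2. Exact permutation tests were two-sided over libraries. Alternatives were RLE and upper-quartile scaling, no filter, a mean count of at least 50, DESeq2 1.42.0, limma-voom (limma 3.58.1), a replicate block, each library left out, and *her4* and *her15.1* copies summed. Ratios of related genes and the count without the Jagunal genes were added after the data were seen. The test was checked on simulated counts. Members and lists (other Notch genes, hairy and Id genes, proneural genes, interferon response, and markers of astroglia, proliferation, endothelium, mural cells, microglia, neurons, oligodendrocyte precursors, ependyma and muscle) were chosen with earlier results of these data known.

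All members are named by role. Called members whose average log2 CPM was 1 or more, and core pathway members whatever their result, have the value of each library. Genes outside the members were first taken from the 4 lowest p of each list. The others named (*psenen*, *aph1b*, *adam10b*, *dner*, *nrarpa*, *nrarpb*, *ascl1a*, *kdrl*, *cdh5*, *abcc9*, *cyp19a1b*, *gap43*, *myrf*, *pik3cb*) were chosen after their values were seen. No pair of pools agreed within sampling noise. Promoter and protein sequences were not analysed here.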

Additional observations from a re-analysis of the deposited data

Results flagged for a closer look

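Among the 82 groups of 4 libraries examined (each tested member in each genotype), 7 had a library far from the other 3, where chance marks about 5% of groups. In *psap* KO brains these were *jagn1b* in pool 4, at 10.3 CPM against 7.48 to 7.92 CPM in the other pools, *her4.2* (ENSDARG00000056729) in pool 3, at 7.97 CPM against 4.36 to 4.90 CPM, and *notch1a* in pool 4, at 36.1 CPM against 39.5 to 40.1 CPM. In WT brains *jag2b* stood apart in pool 1, at 88.3 CPM against 74.5 to 76.1 CPM, and *her13* in pool 4, at 1.72 CPM against 0.792 to 0.877 CPM. Low values were those of *dlb* in WT pool 3, at 4.22 CPM against 5.67 to 5.78 CPM, and of *jag1a* in WT pool 3, at 21.8 CPM against 24.4 to 24.8 CPM. The calls of *notch1a*, *jag1a*, *her13* and *jagn1b* held without the library that stood apart, and that of *jag2b* did not.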

How the results depend on the processing

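The 11 genes called higher were called under each of the alternatives that tested them (*her13* is left out by a filter at a mean count of 50, which left 10 higher and 9 lower). The number called lower was 5 to 10 with a library left out, 12 with RLE scaling, 12 with DESeq2 and 8 with upper-quartile scaling. Signs turned only in genes that were not called: *notch3* had a log2 fold change of -0.0079 with RLE scaling, -0.0088 with DESeq2 and -0.0447 to 0.0629 with a library left out, and *her4.3* had 0.0649 with limma-voom and -0.4601 to 0.3085 with a library left out. With a library left out, the ranges were -0.1039 to 0 for *dla*, -0.3383 to 0.1688 for *her12*, -0.0501 to 0.1338 for *her15.1* (ENSDARG00000054560), -0.3771 to 0.1046 for *her4.2* (ENSDARG00000056729), -0.2247 to 0.0054 for the other *her4.2* (ENSDARG00000094426) and -0.1801 to 0.0161 for the *her4* copies summed. Scaling moved the median of all genes by -0.0224 (RLE) and 0.0321 (upper-quartile). The replicate numbers name pools, and the sources used here state no pairing of them. Deviations of same-numbered libraries correlated at 0.057, 0.071, 0.133 and 0.167, and not every pool correlated best with its own number. The second principal component (8.5% of the variance) was 25.9, 11.4, -1.56 and -31.6 in *psap* KO pools 1 to 4. It was 16.2, 20.7, -18.2 and -22.9 in WT pools 1 to 4. Per the study's methods, WT and KO samples were handled in turn, and an effect of that order was not tested beyond the replicate block. With a replicate block in the fit, 11 members were higher and 12 lower, *her4.3* had a log2 fold change of 0.0183, *jag1b*, *hes6* and *her15.1* (ENSDARG00000054562) were called lower and *her8a* lost its call. Low read numbers limit *her13*, *her8.2* and *her12*, and the filter on low counts left 3 members out of the main fit.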
